A study of Mus musculus with 9 samples.

Results

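Cumulus cells that had lost 1 copy of Gdf9 on top of both copies of Bmp15 were compared with cumulus cells that had lost Bmp15 alone. The genotype Bmp15-/-Gdf9+/- is labelled DM, and 3 DM arrays were set against 3 Bmp15-/- arrays out of 9 in the series. The remaining 3 arrays came from wildtype cells and entered the fit for their spread. Neither mutant group can make BMP15, so the groups differ in the number of intact Gdf9 alleles, and a Gdf9+/- group with BMP15 present was not analysed here. All females were on a mixed B6/129 background, were aged 4 to 5 months and had been given 5 IU of equine chorionic gonadotropin 48 hours before collection, a hormone that drives follicles to the large antral stage. Each array came from a pool of 3 to 4 mice, which gave 75 to 100 cumulus-oocyte complexes. The oocytes were stripped off mechanically in medium with 5 µM milrinone, which blocks the oocyte phosphodiesterase PDE3 and so holds meiosis, and 10 ng of total RNA per pool was amplified in a pair of rounds. Values are log2 probe set intensities, and a gene is represented by the probe set with the highest mean. Of 18194 genes with a probe set, 13447 passed a filter on dim signal and were tested.

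GDF9 and BMP15 are closely related ligands of the TGF-beta superfamily that the oocyte secretes towards the granulosa cells around it. GDF9 acts through the type I receptor ALK5 and SMAD2 and SMAD3, whereas BMP15 acts through BMP type I receptors and SMAD1 and SMAD5, and both use the type II receptor BMPR2. Cumulus cells under the influence of the oocyte run glycolysis and cholesterol synthesis partly on its behalf, because the mouse oocyte handles glucose and makes cholesterol poorly by itself.

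The cells carried transcripts of granulosa cells at high levels in both mutants. Over the 6 arrays the log2 level of Inha ranged from 13.1 to 13.3, that of the gap junction gene Gja1 from 14.0 to 14.1, that of Bmpr1b from 11.90 to 11.99 and that of the follicle-stimulating hormone receptor Fshr from 9.75 to 10.4. Gdf9 itself is an oocyte transcript and was near the dim end of the scale, with log2 levels of 5.70, 6.59 and 4.99 on Bmp15-/- arrays 1 to 3 and 4.67, 5.30 and 5.63 on the DM arrays. The groups overlapped, and the difference of -0.56 ± 0.69 (SE) was not called (limma, Benjamini-Hochberg adjusted p = 0.754 over all probe sets). The wildtype arrays, at 5.03, 8.12 and 6.56, entered that SE. A lower level in DM was thus not detectable in these cells, and whether the probe set lies in the deleted part was not checked. Bmp15 was flat in both mutants, at 5.08 to 5.10 in Bmp15-/- and 5.05 to 5.09 in DM in its brightest probe set.

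Arrays within a genotype correlated at r = 0.992 or more in Bmp15-/- and 0.988 or more in DM. The gene-wise SD had a median of 0.12 in Bmp15-/- and 0.16 in DM. DM array 2 lay nearest to the Bmp15-/- arrays: on a first principal component that held 55.2% of the variance, the Bmp15-/- arrays had scores of 1.19, 1.98 and 9.17 and the DM arrays 30.4, 16.8 and 33.0. The Gapdh control probe sets gave a 3' minus 5' difference of 0.72, 0.66 and 0.73 in Bmp15-/- and of 0.87, 0.95 and 0.79 in DM, with no overlap, which moves with the genotype in every result that follows. That of beta-actin overlapped, at 1.85 to 1.92 against 1.85 to 2.12. Calls that hold when an array is left out, or with this difference as a covariate, are named below.

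The comparison asked which cumulus cell transcripts change when 1 Gdf9 copy is lost in the absence of BMP15. In DM, 437 of 13447 genes were called at an adjusted p under 0.05 (limma with Benjamini-Hochberg adjustment), which is 3.25% of the genes tested. The calls were split evenly, with 221 higher (1.64%) and 216 lower (1.61%). A fold change of at least 2 was reached by 91 of them, 50 higher and 41 lower, and the smallest fold among the calls was 1.27. The largest falls included the lactate exporter Slc16a3, the desaturase Scd1 and the EGF receptor, and the largest rises the exocytosis factor Cadps, the ligand Bmp2 and smooth muscle actin Acta2. Over all genes, 1204 (8.95%) had every DM array above every Bmp15-/- array and 1677 (12.5%) had every DM array below, and the median change was -0.03. With the Gapdh 3' minus 5' difference as a covariate 62 genes were called higher and 286 lower, and 97 of the 437 calls were still made. Without DM array 2 the calls numbered 922, of which 318 were higher and 604 lower, while they numbered 105 without Bmp15-/- array 2, 128 without Bmp15-/- array 1, 255 and 278 without DM array 1 and 3, and 245 to 268 without any 1 wildtype array. None of the 100 called genes named in the text changed sign in any of the 23 alternatives that tested it. In all 437 calls the groups did not overlap, so leaving out arrays could not change a sign. Of the 100, 38 were called again when each of the 9 arrays was left out in turn. Among the 30 largest changes these were Cadps, Gdpd2, Rbms3, Galc, Dapk1, Ccdc80 and Acta2 of the rises and Epha4, Cox4i2, Boc, Ak4, Fam81a, Egfr and Fdps of the falls. The others were Abca1, Bnip3, Col6a3, Cyp51, Esr1, Fgfr2, Hk2, Ldha, Msmo1, Nsdhl, P4ha1, Pdk1, Pfkfb3, Pfkp, Pgam1, Pkm, Pla2g4a, Sema3g, Sema4d, Sema4g, Slc38a3, Stard4, Sulf1 and Zfp950. The Gapdh covariate left 39 of the 100 called and 61 not. The rises among the 39 were Abca1, Acta2, Cadps, Dapk1, Galc, Gdpd2 and Sulf1. The falls were Ak4, Aldoa, Aldoc, Bnip3, Boc, Ceacam10, Cox4i2, Cyp51, Efna5, Egfr, Epha4, Esr1, Fam81a, Fdps, Fgfr2, Ldha, Msmo1, Nsdhl, P4ha1, Pdk1, Pdlim4, Pfkl, Pgam1, Pkm, Pla2g4a, Scd1, Sema3g, Sema4d, Slc16a3, Stard4, Tmem45a and Tpi1.

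**Figure D1:**
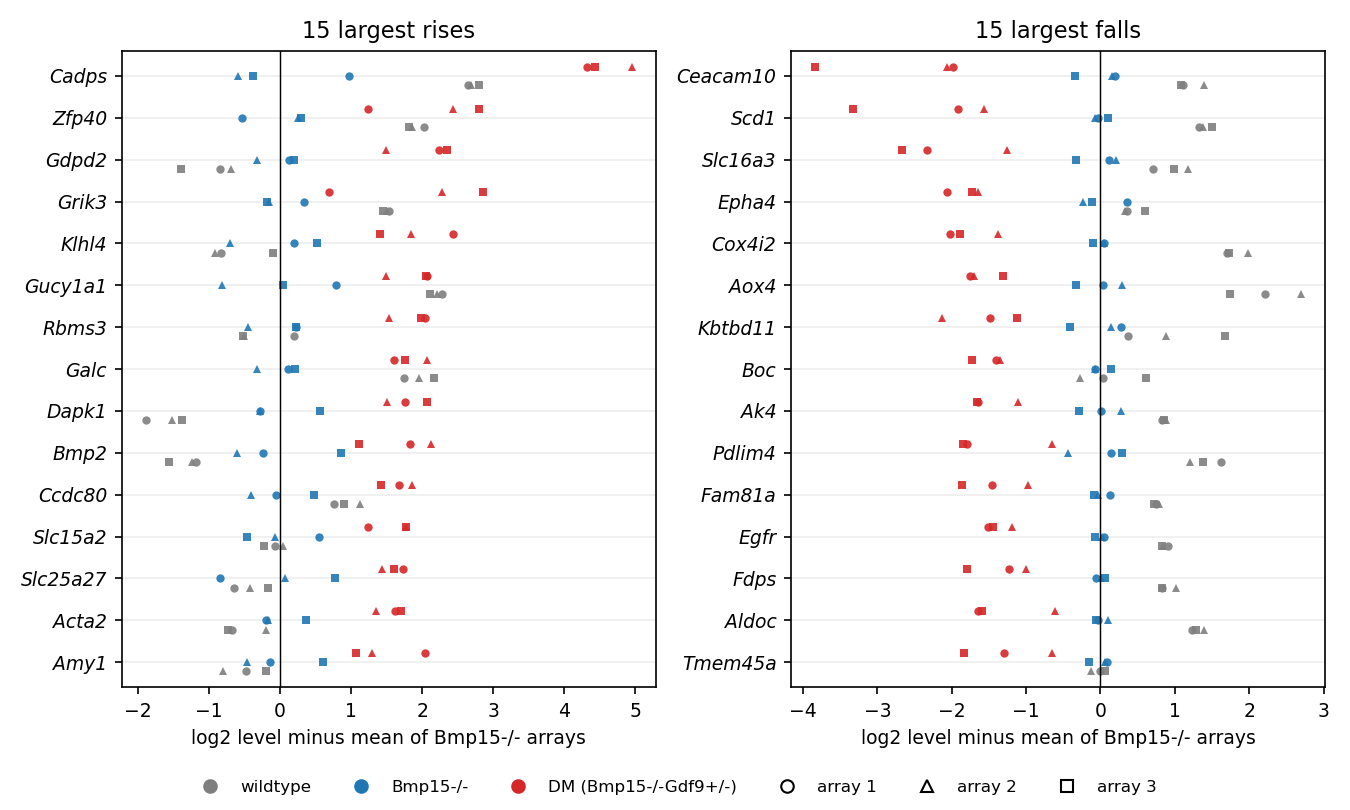
Log2 levels on each array, relative to the mean of the 3 Bmp15-/- arrays (x axis), for the 15 called genes with the largest rises (left) and the 15 with the largest falls (right) in DM. Each point is 1 array, coloured by genotype and shaped by array number. The genes were chosen among those without overlap, so in all 30 the red DM points lie to one side of the blue Bmp15-/- points. Cadps stands farthest out, at 4.57 log2 units.

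Cadps, which primes dense-core vesicles for release, rose most. Its log2 level was 5.64, 4.08 and 4.29 on the Bmp15-/- arrays, 9.00, 9.62 and 9.10 on the DM arrays and 7.38 on average in wildtype. The lowest DM array thus stood above every wildtype and every Bmp15-/- array, and the measured difference was 4.57 ± 0.35 (adjusted p = 0.00104). Because 2 of the 3 Bmp15-/- arrays were below the 40th percentile of their array, the level under which signal was treated as dim, the rise is given as at least 16.02-fold, with dim arrays set to that percentile. Of the 221 called rises, 7 had all 3 Bmp15-/- arrays below it, and so passed the filter through other groups. Galc, a lysosomal galactosylceramidase, had levels of 6.64, 6.20 and 6.74 in Bmp15-/- and of 8.14, 8.60 and 8.28 in DM, which overlapped the wildtype levels of 8.28, 8.49 and 8.70. Galc rose 3.51-fold over Bmp15-/- (adjusted p = 0.00343). Gucy1a1, a subunit of the soluble guanylate cyclase that nitric oxide activates, went from 8.28, 6.68 and 7.53 to 9.57, 8.99 and 9.55, with wildtype at 9.61 to 9.78. Its change of 1.87 ± 0.33 was called (adjusted p = 0.0223), but its other tested probe set had a change of opposite sign that was not called. The zinc finger gene Zfp40 (at least 2.73-fold by the same bound, dim on all 3 Bmp15-/- arrays), the kainate receptor subunit Grik3 (3.83-fold) and the secreted matrix protein Ccdc80 (3.14-fold) also rose and were lower on the Bmp15-/- arrays than on any wildtype array. Ccdc80 was dim on 1 Bmp15-/- array. Other tested probe sets of Grik3 and Ccdc80 likewise had changes of opposite sign that were not called.

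A second set of large rises began from Bmp15-/- levels at or above those of wildtype. Dapk1, a calmodulin-regulated kinase of cell death, had DM levels of 9.18, 8.92 and 9.49, above Bmp15-/- levels of 7.13, 7.13 and 7.98 and wildtype levels of 5.52, 5.89 and 6.04. None of its 3 groups overlapped another, and the step from Bmp15-/- to DM was 1.78 ± 0.24 (3.43-fold, adjusted p = 0.00845). Gdpd2, a glycerophosphodiester phosphodiesterase, rose 4.07-fold, from 6.99, 6.54 and 7.06 to 9.10, 8.35 and 9.22 (adjusted p = 0.00728). Acta2 rose from 5.93, 5.95 and 6.49 to 7.74, 7.47 and 7.82, with wildtype at 5.39 to 5.92 (2.94-fold, adjusted p = 0.00693). Klhl4 was dim on all wildtype and all Bmp15-/- arrays, passed the filter through its DM arrays alone, and rose at least 2.46-fold by the same bound. The RNA-binding protein gene Rbms3, the peptide transporter Slc15a2, the mitochondrial carrier Slc25a27 and the amylase Amy1 rose between 2.76-fold and 3.61-fold. Slc25a27 was dim on 1 Bmp15-/- array. Of these genes, Rbms3 had another 2 probe sets called in the same direction, and Slc15a2 had another of opposite sign that was not called.

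Among the falls, Ceacam10, a cell adhesion protein of the carcinoembryonic antigen family, was at 9.63, 9.59 and 9.10 in Bmp15-/- and 7.46, 7.37 and 5.61 in DM, a 6.19-fold drop (adjusted p = 0.0139). The ephrin receptor Epha4 went from 10.23, 9.64 and 9.76 to 7.81, 8.23 and 8.15 (3.51-fold lower, adjusted p = 0.00343), while its wildtype levels were 10.20 to 10.47. Cox4i2, the isoform of a cytochrome c oxidase subunit that low oxygen induces, was at 7.45, 7.45 and 7.31 in Bmp15-/- and 5.39, 6.03 and 5.52 in DM (3.39-fold lower, adjusted p = 0.00343). Its 3 wildtype arrays were at 9.11 to 9.40, so that the genotypes formed 3 separate steps. Boc, a co-receptor for Hedgehog ligands, had 9.40, 9.39 and 9.60 in Bmp15-/- and 8.05, 8.12 and 7.74 in DM, and its Bmp15-/- arrays lay within the wildtype range of 9.19 to 10.08. Boc fell 2.82-fold (adjusted p = 0.00813). The aldehyde oxidase Aox4, Kbtbd11, the mitochondrial adenylate kinase Ak4, the LIM domain protein Pdlim4, Fam81a and the membrane protein Tmem45a fell between 2.39-fold and 3.01-fold. Of 3 other tested probe sets of Ak4, 1 was also called lower and 1 had a change of opposite sign that was not called.

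Glycolysis and lactate handling held the largest share of falls among the metabolic lists. Of 19 tested, 13 were called lower and 1 higher, which is 73.7% against 3.25% of all genes. The median change was -0.70 against -0.03 for all genes. In 15 of the 19 every DM array lay below every Bmp15-/- array, against 12.5% of all genes. The glucose transporter Slc2a1 fell by 0.48 ± 0.10 and the lactate exporter Slc16a3 by 2.09 ± 0.32. The call of Slc2a1 was lost under 14 of 23 alternatives. With the Gapdh covariate its change was -0.16 (limma adjusted p = 0.607). Slc16a3 had levels of 10.56, 10.66 and 10.12 in Bmp15-/- and 8.12, 9.19 and 7.79 in DM, and the DM array with the highest level was array 2 (adjusted p = 0.0114). Hexokinase Hk2, which traps glucose in the cell, had 10.58, 10.73 and 10.36 in Bmp15-/- and 9.74, 9.39 and 9.53 in DM, which is a 2.00-fold fall (adjusted p = 0.00912). The platelet-type phosphofructokinase Pfkp, an enzyme of the committed step, went from 9.93, 10.27 and 9.97 to 8.87, 9.01 and 8.95 (2.16-fold lower, adjusted p = 0.00428). Pfkfb3, which makes the activator of that step, fell by 1.08 ± 0.16 and the liver-type Pfkl by 0.79 ± 0.17, whereas the muscle-type Pfkm had a change of -0.06 ± 0.12 that was not called. The 1 other tested probe set of Pfkfb3 had a change of opposite sign.

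Further down the pathway the aldolases Aldoc (-1.28 ± 0.24, dim on 2 DM arrays) and Aldoa (-0.70 ± 0.11), the triose phosphate isomerase Tpi1 (-1.09 ± 0.16), the phosphoglycerate kinase Pgk1 (-0.64 ± 0.12), the mutase Pgam1 (-0.66 ± 0.09) and pyruvate kinase Pkm (-0.85 ± 0.10) all fell. Lactate dehydrogenase changed in its 2 subunits in opposite directions. Ldha, the subunit that favours lactate formation, was at 11.81, 11.88 and 11.68 in Bmp15-/- and 10.83, 11.12 and 10.93 in DM, with wildtype at 12.70 to 12.82 (adjusted p = 0.00662). Ldhb, the subunit typical of tissues that oxidise lactate, was at 11.04, 10.66 and 11.42 in Bmp15-/- and 11.94, 11.67 and 11.91 in DM (adjusted p = 0.0412). Ldhb thus rose by 0.80 ± 0.17 while Ldha fell by 0.83 ± 0.10, and in neither did the groups overlap. The members not called were Gapdh (-0.39 ± 0.10, adjusted p = 0.0696), Slc16a1 (-0.27 ± 0.10), Pfkm, Hk1 (0.32 ± 0.11) and Slc2a3 (0.33 ± 0.36). The count of 13 became 6 without Bmp15-/- array 2, 7 without Bmp15-/- array 1, 9 without DM array 1 and without DM array 3, and 8 with the Gapdh 3' minus 5' difference as a covariate, where the median was -0.86. The rise of Ldhb was not called with that covariate (adjusted p = 0.248), nor without Bmp15-/- array 1 or 2, DM array 1 or 3, or any 1 wildtype array.

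**Figure D2:**
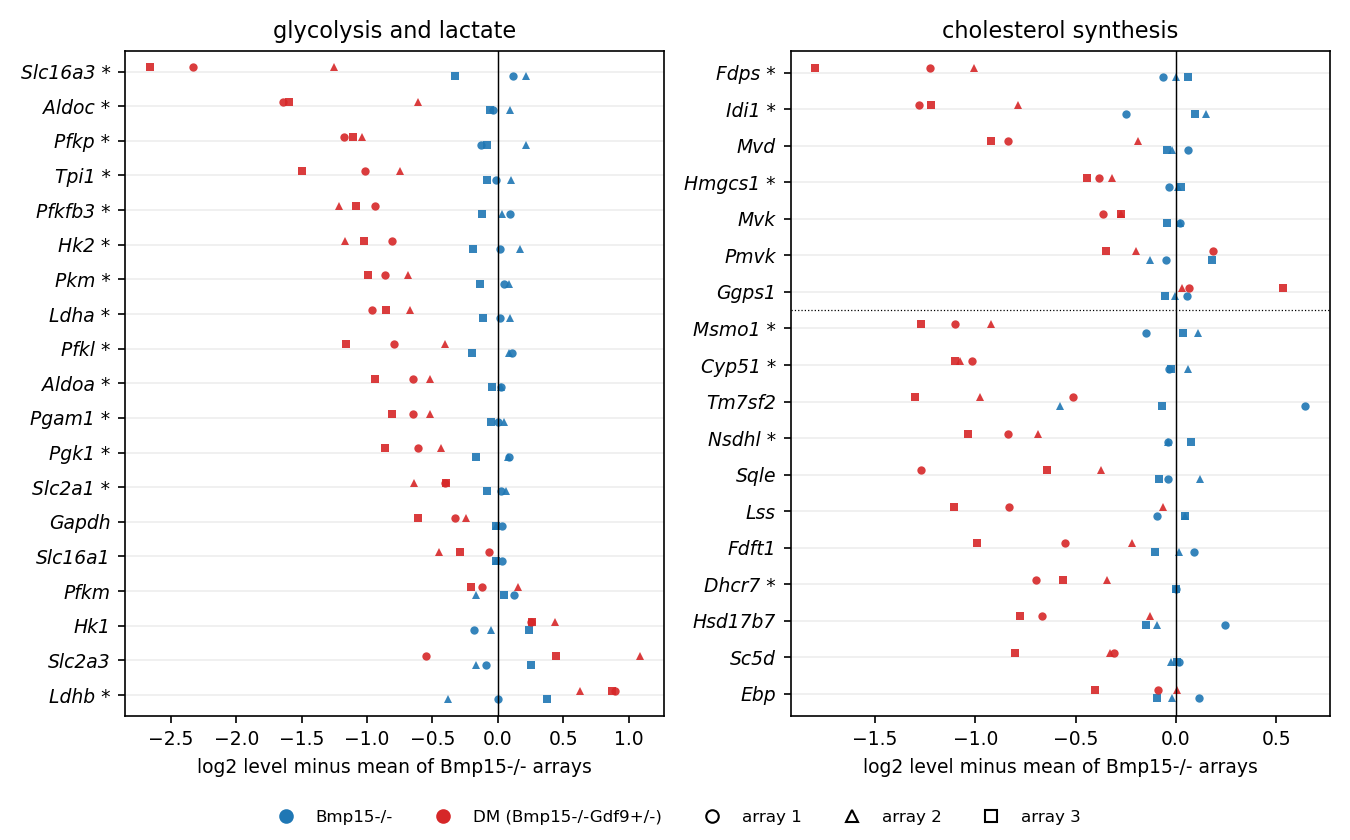
Log2 levels on each of the 6 arrays, relative to the mean of the Bmp15-/- arrays (x axis), for the 19 tested genes of glycolysis and lactate handling (left) and the 18 of cholesterol synthesis (right, with the mevalonate arm above the dotted line). An asterisk marks a called gene. The DM points lie left of the Bmp15-/- points in most rows, with Ldhb at the foot of the left panel moving the other way by 0.80 log2 units.

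Many glycolytic genes are known targets of the hypoxia-inducible factors, which bind the core ACGTG. Promoters of some called members with a match are shown. Promoter windows of 250 bases before to 50 after the start were taken from RefSeq on build GRCm38.p6, written 5' to 3' in the direction of the gene, with each match to ACGTG on either strand in capitals. A CACGTG counts once on each strand. A gene counts as holding the motif if any of its listed starts does. Ldha lies at chr7:46845554-46845853 (plus strand), Slc16a3 at chr11:120948817-120949116 (plus strand), Pgk1 at chrX:106186850-106187149 (plus strand), Pkm at chr9:59656977-59657276 (plus strand), and Bnip3 and P4ha2, from the second list below, at chr7:138909457-138909756 (minus strand) and chr11:54100674-54100973 (plus strand).
Ldha: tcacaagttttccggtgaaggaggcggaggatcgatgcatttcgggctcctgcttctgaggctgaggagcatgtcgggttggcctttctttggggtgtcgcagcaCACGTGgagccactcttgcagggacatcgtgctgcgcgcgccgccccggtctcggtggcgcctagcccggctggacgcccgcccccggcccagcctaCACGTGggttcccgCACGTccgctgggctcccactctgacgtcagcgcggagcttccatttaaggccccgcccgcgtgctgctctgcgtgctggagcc
Slc16a3: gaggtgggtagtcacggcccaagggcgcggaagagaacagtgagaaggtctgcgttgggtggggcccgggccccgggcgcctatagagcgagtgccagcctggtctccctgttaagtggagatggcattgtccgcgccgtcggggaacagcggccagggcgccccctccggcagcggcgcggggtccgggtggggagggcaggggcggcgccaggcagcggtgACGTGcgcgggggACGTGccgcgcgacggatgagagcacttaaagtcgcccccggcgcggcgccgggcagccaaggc
Pgk1: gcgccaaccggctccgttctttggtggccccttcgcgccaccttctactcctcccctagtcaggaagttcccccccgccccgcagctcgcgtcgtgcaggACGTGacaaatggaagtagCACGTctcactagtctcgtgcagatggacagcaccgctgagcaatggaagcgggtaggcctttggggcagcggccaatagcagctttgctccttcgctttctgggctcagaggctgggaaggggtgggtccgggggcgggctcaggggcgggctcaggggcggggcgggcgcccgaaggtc
Pkm: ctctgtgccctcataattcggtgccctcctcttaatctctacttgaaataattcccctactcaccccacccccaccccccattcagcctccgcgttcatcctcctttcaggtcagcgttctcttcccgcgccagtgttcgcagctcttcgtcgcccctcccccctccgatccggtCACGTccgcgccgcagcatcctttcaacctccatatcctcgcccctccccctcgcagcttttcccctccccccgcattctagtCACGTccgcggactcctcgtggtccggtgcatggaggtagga
Bnip3: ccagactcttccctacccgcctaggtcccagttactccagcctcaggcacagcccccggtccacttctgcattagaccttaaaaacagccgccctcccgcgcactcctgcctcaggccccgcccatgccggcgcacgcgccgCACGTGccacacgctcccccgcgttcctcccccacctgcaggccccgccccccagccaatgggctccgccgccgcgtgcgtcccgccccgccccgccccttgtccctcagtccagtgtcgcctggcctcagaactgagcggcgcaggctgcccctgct
P4ha2: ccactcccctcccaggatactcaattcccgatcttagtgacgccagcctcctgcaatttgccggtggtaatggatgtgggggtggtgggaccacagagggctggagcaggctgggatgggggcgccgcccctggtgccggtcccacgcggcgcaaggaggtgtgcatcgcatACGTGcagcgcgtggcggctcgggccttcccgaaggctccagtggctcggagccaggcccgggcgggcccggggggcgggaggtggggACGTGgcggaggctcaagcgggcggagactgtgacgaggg
Of the windows shown, that of Ldha held 5 matches and the others 2 each. The windows shown are a choice and do not follow the order of p. Among called members not shown, Pgam1, Aldoa, Aldoc, Slc2a1 and P4ha1 had 1 match per window. Hk2 had 2, and Pfkfb3 had 1 or 2 by start. The called genes Pfkp, Pfkl, Tpi1, Ldhb and Pdk1 had no listed match. Members of both lists that were not called also held matches. ACGTG was found in 14 of 18 glycolysis genes with a listed promoter (77.8%), in 13 of 17 other hypoxia-inducible genes (76.5%) and in 3058 of 10844 tested genes with one (28.2%). A match describes these letters and is not evidence of a bound site.

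Among hypoxia-inducible genes outside glycolysis 4 fell. Of 19 tested, 4 were called lower with limma, against 1.61% of all genes, and none higher. A positive change was seen in 3, and the median was -0.31. In 12 of the 19 every DM array lay below every Bmp15-/- array, against 12.5% of all genes. With the Gapdh covariate 3 were called, without P4ha2. Bnip3, a mitochondrial protein of mitophagy, went from 11.02, 11.14 and 10.83 to 9.74, 10.18 and 9.58, with no overlap (2.24-fold lower, adjusted p = 0.00728). Pyruvate dehydrogenase kinase Pdk1, which limits the entry of pyruvate into mitochondria, fell by 0.76 ± 0.11, and the collagen prolyl hydroxylases P4ha1 and P4ha2 fell by 0.80 ± 0.11 and 1.16 ± 0.21. Pdk1 was not called when its most variable probe set stood for it (adjusted p = 0.87). On the list of the tricarboxylic acid cycle 1 of 23 genes was called, the pyruvate dehydrogenase subunit Pdhb, which fell by 0.45 ± 0.08. The pentose phosphate pathway had no called gene among 6 in limma and 2 at an unadjusted p under 0.05, with a median of -0.05.

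Cholesterol synthesis was the second metabolic group with many falls. In the mevalonate arm 3 of 7 tested genes were called lower (median -0.38), and on the way from squalene to cholesterol 4 of 11 (median -0.67). Over all genes 1.61% were called lower. No gene of either list was called higher, and all 11 members of the second list had a negative change. Fdps, which makes farnesyl diphosphate, was at 9.35, 9.41 and 9.47 in Bmp15-/- and 8.18, 8.41 and 7.61 in DM, against 10.24 to 10.43 in wildtype (2.54-fold lower, adjusted p = 0.0074). Cyp51, the lanosterol demethylase, was at 9.74, 9.83 and 9.74 against 8.75, 8.69 and 8.67 and fell 2.09-fold (adjusted p = 0.000763). Its neighbours in the pathway, the methyl sterol oxidase Msmo1 and the dehydrogenase Nsdhl, fell by 1.10 ± 0.12 and 0.85 ± 0.11. Idi1 (-1.10 ± 0.16), the HMG-CoA synthase Hmgcs1 (-0.38 ± 0.07) and the final reductase Dhcr7 (-0.53 ± 0.10) fell as well.

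Several members missed the threshold although their arrays did not overlap. Sqle, the squalene epoxidase, was at 8.91, 9.07 and 8.86 in Bmp15-/- and 7.68, 8.58 and 8.31 in DM (-0.76 ± 0.20, adjusted p = 0.069). Mvd, Mvk, Sc5d and Fdft1 had changes of -0.65, -0.30, -0.48 and -0.59 with adjusted p from 0.0794 to 0.0939. For Lss, Hsd17b7, Tm7sf2, Ebp, Pmvk and Ggps1 the arrays of the groups overlapped, and for Lss only DM array 2, at 7.19, reached the Bmp15-/- range of 7.16 to 7.30. Without DM array 2 the calls of the 2 lists rose to 4 and 8. Without Bmp15-/- array 2 the mevalonate arm had 1 call, and its single call with the Gapdh 3' minus 5' difference as a covariate stood beside 4 in the second list.

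Genes that control sterol supply moved in the same and in the opposite sense, with 4 of 14 lower and 1 higher. Over all genes these shares were 1.61% and 1.64%. The transcription factor Srebf2, which drives sterol synthesis genes, was at 10.65, 10.70 and 10.72 in Bmp15-/- and 10.29, 10.21 and 9.95 in DM (-0.54 ± 0.11, adjusted p = 0.0374). Its call was lost without Bmp15-/- array 1, 2 or 3, DM array 3 or wildtype array 1 or 3, at adjusted p up to 0.12. The sterol carrier Stard4 fell 2.37-fold, from 8.88, 8.84 and 8.86 to 7.81, 7.84 and 7.21. The lipoprotein receptors Lrp8 and Scarb1 fell by 0.78 ± 0.14 and 0.53 ± 0.10. The count of 4 falls became 1 without Bmp15-/- array 1 or 2 or DM array 3, and 2 without Bmp15-/- array 3 or DM array 1. It was also 1, that of Stard4, with the Gapdh 3' minus 5' difference as a covariate. Abca1, which exports cholesterol from the cell, was the member that rose, from 8.20, 8.20 and 8.16 to 8.88, 8.71 and 9.05 (1.62-fold, adjusted p = 0.00912), and it was not called as the mean of its probe sets (adjusted p = 0.37). The sterol regulatory element TCACNCCAC, sought on both strands, was found in 1 of 6 promoters of the mevalonate arm, that of Hmgcs1, in none of 9 from squalene onwards, in none of 11 of sterol control and in 1.45% of 10844 promoters.

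In fatty acid synthesis 2 of 20 genes were called, against 3.25% of all genes, and both were desaturases. Scd1 was at 10.02, 9.98 and 10.15 in Bmp15-/- and 8.13, 8.48 and 6.72 in DM, a 4.82-fold fall (adjusted p = 0.0139), and Fads2 fell by 0.75 ± 0.13. Neither was called without Bmp15-/- array 1 or 2. The median of the list was -0.14. Of 21 amino acid transporters, 3 were called lower, against 1.61% of all genes. They were Slc1a5 (-0.49 ± 0.10), the glycine transporter Slc6a9 (-0.84 ± 0.18) and the taurine transporter Slc6a6 (-0.45 ± 0.10). None of these 3 was called without Bmp15-/- array 1 or 2, DM array 3 or any 1 wildtype array. Slc38a3, which carries glutamine and other neutral amino acids, rose from 7.84, 7.23 and 7.84 to 9.07, 8.74 and 8.47 (2.18-fold, adjusted p = 0.0168). Its call was lost with the Gapdh 3' minus 5' difference as a covariate (adjusted p = 0.287) and in a fit of the 6 mutant arrays alone (adjusted p = 0.0731). None of the 3 falls was called with that covariate. In serine and one-carbon metabolism 1 of 13 genes fell, the mitochondrial hydroxymethyltransferase Shmt2 (-0.66 ± 0.14).

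**Figure D3:**
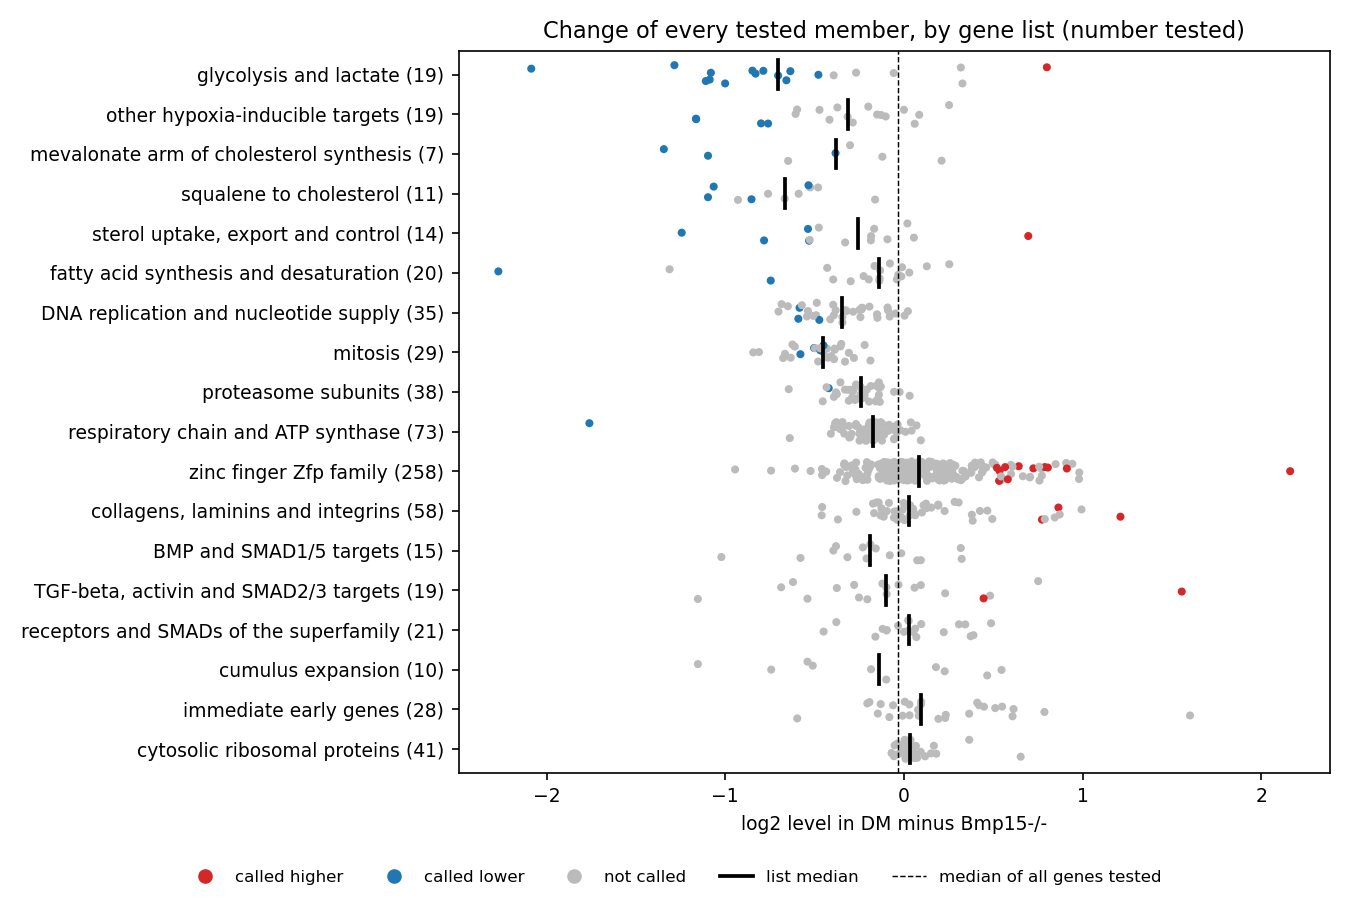
Log2 change from Bmp15-/- to DM (x axis) of every tested member of 18 gene lists, with the number tested in parentheses. Red and blue points are called genes, grey points are not called, thick bars are list medians and the dashed line is the median of all 13447 genes. The glycolysis and squalene to cholesterol lists lie farthest to the left, with medians of -0.70 and -0.67, and the cytosolic ribosomal proteins gather at 0.03.

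The receptor for EGF-like ligands, through which the ovulatory signal reaches cumulus cells, shared the smallest adjusted p of the comparison with Cyp51. Egfr had DM levels of 8.43, 8.74 and 8.49, under Bmp15-/- levels of 9.99, 9.95 and 9.86 and wildtype levels of 10.84, 10.78 and 10.76. No array of one genotype overlapped another, and the step between the mutants was -1.38 ± 0.10, or 2.61-fold (adjusted p = 0.000763). Of the other 11 tested genes of EGF receptors and ligands limma called none. The ligand Hbegf was at 7.66, 7.31 and 7.75 against 9.27, 8.61 and 8.09 (1.08 ± 0.25, adjusted p = 0.0528), and the receptor inhibitor Lrig1 had a change of -0.50 ± 0.13 (adjusted p = 0.073). On the list of meiotic arrest and cGMP, Gucy1a1 rose and the estrogen receptor Esr1 fell from 9.64, 9.76 and 9.48 to 8.58, 8.94 and 8.47 (1.95-fold, adjusted p = 0.00959). Npr2, the receptor that makes the arresting cGMP in cumulus cells, was at 10.71 to 10.84 in Bmp15-/- and 10.75 to 10.87 in DM (0.03 ± 0.09).

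Direct readouts of the superfamily pathways showed few calls. None of 15 BMP and SMAD1/5 targets was called in limma (median -0.19), and 2 had an unadjusted p under 0.05, as had 2670 of all genes. Id3, a common readout of BMP signals, was at 9.00, 9.08 and 9.01 in Bmp15-/- and 9.34, 9.58 and 9.14 in DM, against a wildtype mean of 10.60 (0.32 ± 0.11, adjusted p = 0.144). Id1 (0.32 ± 0.35) and Id2 (-0.58 ± 0.36) overlapped between the groups, as did the inhibitor Smad7 (0.09 ± 0.18). Of 19 TGF-beta, activin and SMAD2/3 targets, 2 rose, against 1.64% of all genes. Both were cytoskeletal: Acta2 and the tropomyosin Tpm1, which went from 11.98, 11.90 and 12.07 to 12.49, 12.30 and 12.50 (1.36-fold, adjusted p = 0.0353). The list as a whole had 12 negative changes and a median of -0.10. Every DM array lay below every Bmp15-/- array in 6 members and above in 4, against 12.5% and 8.95% of all genes. The call of Tpm1 was lost under 15 of 23 alternatives, among them each array left out other than DM array 2 and the Gapdh covariate (adjusted p = 0.101). The matrix genes Ccn1 and Ccn2 had every DM array above every Bmp15-/- array and were not called, with changes of 0.75 ± 0.27 and 0.48 ± 0.17.

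Receptors and SMADs of the superfamily had no call by limma among 21 genes, 5 of them at an unadjusted p under 0.05, and a median of 0.03. The type II receptor Bmpr2 had a difference of 0.00 ± 0.08, the ALK5 gene Tgfbr1 of 0.02 ± 0.09 and the BMP type I receptor Bmpr1b of 0.03 ± 0.08. Smad3 was nearest to the threshold, at 10.15, 10.25 and 10.11 in Bmp15-/- and 10.48, 10.44 and 10.61 in DM (0.34 ± 0.08, adjusted p = 0.0561). Of 16 ligands and binding proteins that granulosa cells make, Bmp2 was called. Bmp2 had levels of 6.12, 5.76 and 7.23 in Bmp15-/- and 8.19, 8.50 and 7.48 in DM, where Bmp15-/- array 3 and DM array 3 nearly met, and 4.81 to 5.18 in wildtype (3.22-fold, adjusted p = 0.0413). Leaving out any 1 array other than Bmp15-/- array 3 or DM array 3 ended that call, at adjusted p from 0.064 to 0.13, as did the Gapdh covariate (adjusted p = 0.667). The inhibin beta subunits Inhbb (-0.62 ± 0.15, adjusted p = 0.0568) and Inhba (-0.69 ± 0.22, adjusted p = 0.124) had every DM array below every Bmp15-/- array and were not called, and the alpha subunit Inha had a change of -0.10 ± 0.08.

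Genes of cumulus expansion, which GDF9 and BMP15 enable after the ovulatory surge, held no call among 10 in limma and 2 at an unadjusted p under 0.05, and their median was -0.14. Has2, the hyaluronan synthase that builds the expanding matrix, was low in both groups, at 6.14, 6.48 and 5.41 in Bmp15-/- and 5.17, 5.11 and 4.28 in DM (-1.15 ± 0.32, adjusted p = 0.0849). Ptgs2 and Tnfaip6 overlapped between the groups, with changes of -0.74 ± 0.43 and -0.54 ± 0.34. Lists of steroidogenesis and gonadotropin receptors (13 genes), Kit ligand and junctions (12), the IGF system (15), Wnt (18), immediate early genes (28), MAPK feedback (13), cytosolic heat shock chaperones (19), glutathione and oxidative stress (21), apoptosis (20) and autophagy (18) had no called gene in limma. They held 1 to 8 members each at an unadjusted p under 0.05, against 2670 of all 13447 genes. These lists differed, with 7 of 15 members in the IGF system, 8 of 21 in glutathione and oxidative stress and 1 of 18 in autophagy. The list medians lay between -0.10 and 0.11. Single calls were made in Notch (Heyl, -0.84 ± 0.18), the circadian clock (Ciart, -0.49 ± 0.11), the interferon response (Tap1, -0.38 ± 0.08) and, in both directions, the stress response of the endoplasmic reticulum (Ppp1r15a 0.59 ± 0.13, Creld2 -0.42 ± 0.10). Each of these 5 calls was lost without Bmp15-/- array 1, without Bmp15-/- array 2 and with the Gapdh covariate.

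Cell cycle genes were lower on the DM arrays, least so on DM array 2. Of 29 tested mitosis genes 4 were called lower, against 1.61% of all genes, and none higher. All 29 had a negative change, and the median was -0.45. In 20 of the 29 every DM array lay below every Bmp15-/- array, against 12.5% of all genes. By array, the median of the list relative to the Bmp15-/- mean was -0.53, -0.17 and -0.62 in DM and 0.04, 0.04 and -0.10 in Bmp15-/-. The called members were the checkpoint protein Mad2l1 (-0.58 ± 0.11), Ect2 (-0.47 ± 0.10) and Prc1 (-0.45 ± 0.10) of cytokinesis, and Cdc20 (-0.50 ± 0.11), which activates the anaphase ligase. Of 35 genes of DNA replication and nucleotide supply 3 were called lower, against 1.61% of all genes. They were the helicase subunit Gins1 (-0.59 ± 0.10), the polymerase Pola1 (-0.58 ± 0.10) and the origin protein Orc6 (-0.47 ± 0.09). The list median was -0.34. In 13 of the 35 every DM array lay below every Bmp15-/- array. Without DM array 2 the calls numbered 27 of mitosis and 14 of replication, and without Bmp15-/- array 1 or 2 there were 0 in either list, where 26 and 19 members had an unadjusted p under 0.05 on all arrays. Mitosis had 0 calls without DM array 1 or 3 and 1 without Bmp15-/- array 3 or any 1 wildtype array, and replication had 1 without DM array 1 or 3. With the Gapdh covariate none of these 7 named genes was called, at adjusted p from 0.0503 to 0.217, while 5 others of mitosis and 3 others of replication were. The list of G1 cyclins and CDK inhibitors had no call by limma among 18, 8 of them at an unadjusted p under 0.05, and a median of -0.21. The E2F motif TTTCNCGC, sought on both strands, was present in 10 of 29 replication promoters (34.5%) and in 4.25% of 10844. The called genes Gins1, Pola1 and Orc6 were not among the 10.

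**Figure D4:**
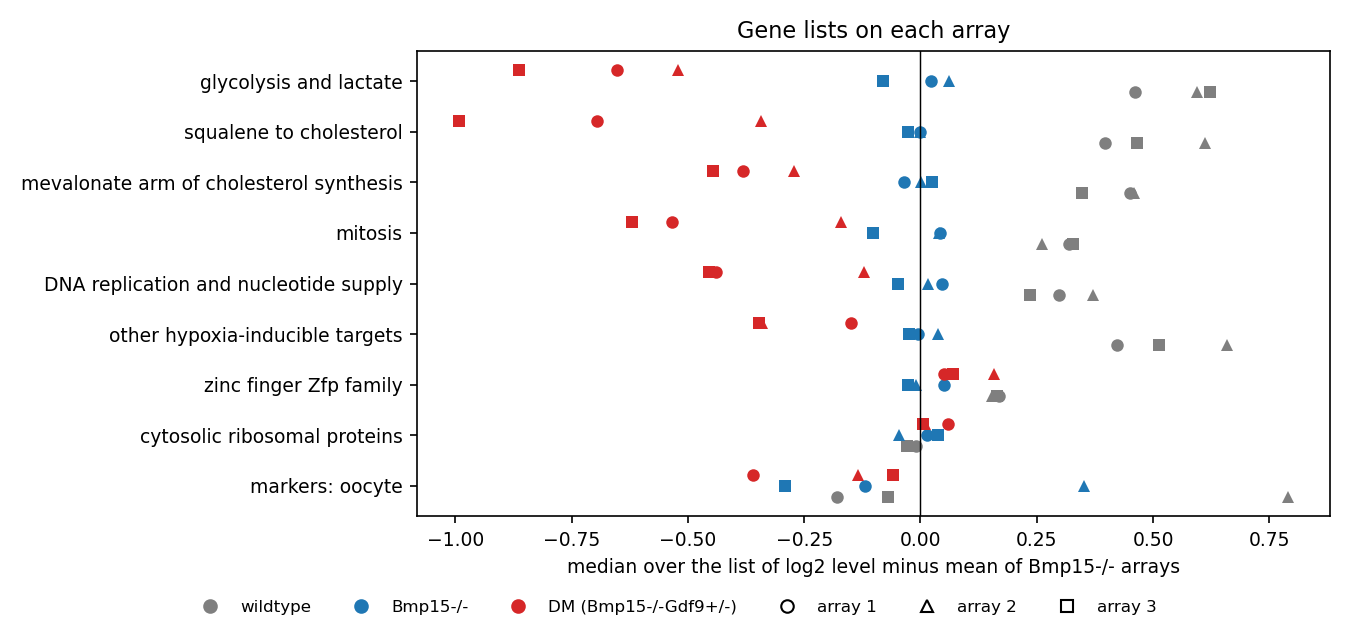
Median over each list of the log2 level relative to the mean of the Bmp15-/- arrays (x axis), for 9 lists on all 9 arrays. Each point is 1 array, coloured by genotype and shaped by array number. DM array 2 (red triangle) is nearest to the Bmp15-/- arrays for mitosis, at -0.17 against -0.53 and -0.62, and Bmp15-/- array 2 (blue triangle) is highest of the mutant arrays for the oocyte markers, at 0.35.

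Large protein assemblies held few calls. Cytosolic ribosomal proteins had no call by limma among 41 (2 at an unadjusted p under 0.05, median 0.03), and mitochondrial ribosomal proteins none among 75 (17 at that level, median -0.18). Among 38 proteasome subunits Psmb3 fell (-0.42 ± 0.09), 22 had an unadjusted p under 0.05 and 37 a negative change. In 20 of them every DM array lay below every Bmp15-/- array, against 12.5% of all genes, and the median was -0.24. Of 73 genes of the respiratory chain and ATP synthase, Cox4i2 was the called member, 18 had an unadjusted p under 0.05, 24 had every DM array below and the median was -0.17. A large family with calls in the other direction was that of the Zfp zinc finger genes, of which 11 of 258 (4.26%) rose, against 1.64% of all genes, and none fell. Besides Zfp40 these included Zfp950 (0.91 ± 0.13), Zfp398 (0.64 ± 0.12), Zfp408 (0.54 ± 0.10) and Zfp956 (0.52 ± 0.09). Of the family, 42 genes had every DM array above every Bmp15-/- array and 10 every DM array below, against 8.95% and 12.5% of all genes, and the median was 0.08. With the Gapdh 3' minus 5' difference as a covariate the 11 became 1, and they were also 1 without Bmp15-/- array 2, 2 without Bmp15-/- array 1, 6 without Bmp15-/- array 3 or wildtype array 2 and 7 without wildtype array 3.

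Matrix and guidance genes moved one by one. Of 58 collagens, laminins and integrins 3 rose (5.17%, against 1.64% of all genes) and none fell. Col6a3 went from 6.40, 6.29 and 6.39 to 7.81, 7.67 and 7.24 (2.32-fold, limma adjusted p = 0.00975). Col4a5 of the basement membrane (0.77 ± 0.13) and Col27a1 (0.86 ± 0.15) were the others, and the count was 1 without Bmp15-/- array 1 or 2 and 6 without DM array 2. None of these 3 was called with the Gapdh covariate, where 3 other members were. Guidance genes held 4 falls and 2 rises among 50 (12% called, against 3.25% of all genes). The secreted semaphorin Sema3g fell from 10.89, 11.08 and 10.95 to 9.49, 10.16 and 9.77 (2.25-fold, adjusted p = 0.00728), and Sema4d by 0.87 ± 0.10, and both were joined by Epha4, described above. The remaining fall, named after its values were seen, was that of the ephrin Efna5 (-1.18 ± 0.24, adjusted p = 0.0326). The plexin Plxna2 (1.06 ± 0.17) and Sema4g (0.72 ± 0.09) rose, and Plxna2 was not called without Bmp15-/- array 1 or 2. Neither rise was called with the Gapdh covariate (adjusted p = 0.0595 and 0.0859). Among 85 ion channels 1 was called (1.18%, against 3.25% of all genes), the potassium channel Kcnk1, which rose by 0.57 ± 0.13.

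Markers of other cells were read on the same arrays, and in these pooled samples fewer cells of a type and less RNA per cell cannot be told apart. None of 16 tested oocyte markers was called by limma (1 at an unadjusted p under 0.05, median -0.21), although all 16 had a negative change. Their median log2 level was 5.75, 6.88 and 5.88 on wildtype arrays 1 to 3, whose spread enters the fit. The summed intensity of the 16 was 1337 to 3099.9 on the Bmp15-/- arrays, with array 2 highest, and 1213 to 1569 on the DM arrays. With the oocyte marker median as a covariate 204 genes were called higher and 177 lower. Of 6 smooth muscle markers Acta2 and the myosin kinase Mylk rose, Mylk from 9.80, 9.70 and 10.10 to 11.42, 11.00 and 10.82. Mylk was not called without Bmp15-/- array 2 (adjusted p = 0.052) or with the Gapdh covariate (adjusted p = 0.166). The other smooth muscle markers Tagln, Myh11, Des and Rgs5 stayed between 4.89 and 6.61 on every mutant array and were not called. The summed intensity of the 6 smooth muscle markers was 1082 to 1407 in Bmp15-/- and 2229.7 to 3159 in DM. Mylk was the brightest of the 6, with mean log2 levels of 9.87 in Bmp15-/- and 11.08 in DM, and weighs most in that sum. Its wildtype mean was 9.98. Theca and stroma markers had no call by limma among 7 and 4 at an unadjusted p under 0.05. Of the 7, 5 had a positive change, 2 had every DM array above every Bmp15-/- array and 1 had every DM array below. Over all genes these last shares were 8.95% and 12.5%. The summed intensity of the 7 was 5333 to 5671 in Bmp15-/- and 6495 to 7117 in DM. Of these markers, the stromal collagens Col1a1 and Col3a1 lay between 5.03 and 5.92 throughout. No call was made among 3 endothelial, 5 immune, 6 epithelial, 2 erythroid and 6 mural granulosa markers in limma, with 1 mural marker and 0 of the others at an unadjusted p under 0.05. On the cumulus list of 11, Pfkp, Ldha and Aldoc fell and Slc38a3 rose, all of them metabolic genes already counted, and the remaining 7, Fshr, Bmpr1b and Npr2 among them, were not called. Of 8 luteal markers Scarb1 fell. The part of any other cell type in the rises of Acta2 and Mylk was not tested.

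Genes beside Gdf9 were read separately, since a deleted allele carries flanking chromosome of the strain in which it was made. Of the 20 tested genes on each side, 4 of 40 (10%) were called, all of them lower, against 1.61% called lower over all genes. None was nearer than the second gene away. Septin8, a septin, was at 7.41, 7.39 and 6.99 in Bmp15-/- and 6.50, 6.73 and 6.27 in DM (-0.76 ± 0.15). Pdlim4 was at 7.64, 7.05 and 7.79 against 5.69, 6.84 and 5.64, with DM array 2 just under the lowest Bmp15-/- array, and fell 2.70-fold. P4ha2, at 7.04, 7.26 and 6.86 against 5.50, 6.37 and 5.80, is also counted among the hypoxia-inducible genes. Fnip1, a partner of folliculin, fell by 0.43 ± 0.09. Without Bmp15-/- array 1, Bmp15-/- array 2 or DM array 3 none of the 40 was called, and 1 or 2 were without DM array 1 or any 1 wildtype array. With the Gapdh covariate Pdlim4 was called and the other 3 were not, while 2 further neighbours were. The flank of Bmp15, which is deleted in both groups, had 0 called of 23 in limma and 3 at an unadjusted p under 0.05, whereas the flank of Gdf9 had 11 at that level. Which strain's alleles each group carried beside Gdf9 was not tested.

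**Figure D5:**
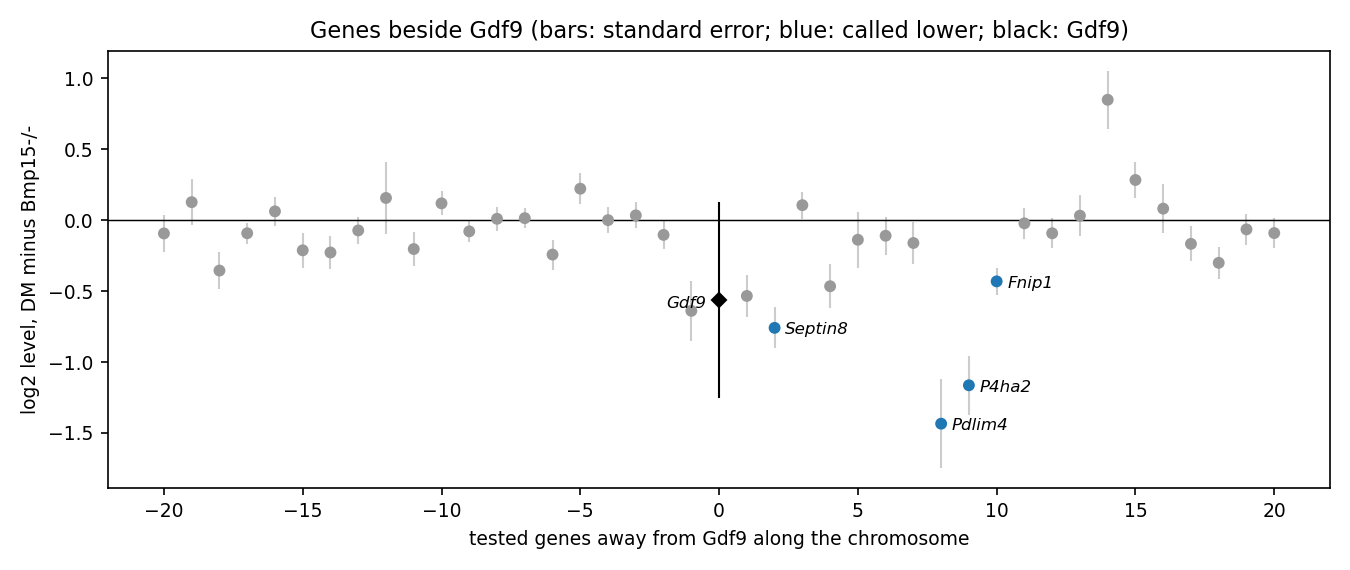
Log2 change from Bmp15-/- to DM (y axis, bars are standard errors) of the 20 tested genes on each side of Gdf9 along chromosome 11, by their order from Gdf9 (x axis). Blue points are called lower, grey points are not called and the black diamond is Gdf9 itself at -0.56. The 4 called genes, Septin8, Pdlim4, P4ha2 and Fnip1, all lie on one side within 10 genes of Gdf9.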

How the data were processed

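Expression was measured on Affymetrix arrays of 45101 probe sets. The deposited values are log2 intensities, and the submitters' processing notes name RMA and the affy package. No further normalization was done, since array medians were 5.52 to 5.59. Probe sets were named from the platform annotation, with symbols updated by RefSeq (GRCm38.p6): 34958 had 1 gene, 932 several and 9211 none. Each gene took its probe set with the highest mean, and had to lie above its array's 40th percentile on 3 of 9 arrays. DM was compared with Bmp15-/- by limma 3.58.1 (lmFit and eBayes, R 4.3.3) over all 9 arrays, with Benjamini-Hochberg adjustment over 13447 genes. The script was tested on simulated data. The fit assumes equal spread in all genotypes and has 6 residual degrees of freedom, so the number of arrays limits the precision.

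Named are the 15 largest rises and falls with no overlap, up to 5 called genes a list by smallest p, Gdf9, Bmp15, any member of the cholesterol, glycolysis, superfamily, expansion, EGF and marker lists, and called neighbours of Gdf9. The comparison and the 52 gene lists were chosen with earlier results of these data known. Alternatives covered arrays, filters, probe set choice, normalization, covariates and a replicate block.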

Additional observations from a re-analysis of the deposited data

How the results depend on the processing

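The 437 calls (221 higher, 216 lower) became 117 (63 and 54) when only the 6 mutant arrays were fitted, where 4 residual degrees of freedom remain. Leaving out 1 array at a time gave 105 to 922 calls, 53 to 318 of them higher and 52 to 604 lower, with the highest counts without DM array 2. With the Gapdh 3' minus 5' difference as a covariate 62 genes were higher, so that 82.2% of calls were lower against 49.4% otherwise, and 124 were higher when array 2 of both mutants was left out, an alternative chosen after seeing the data. The cause was not tested. The 4 called neighbours of Gdf9 became 0 with the 6 arrays alone, 2 as the mean of probe sets and 0 to 5 with 1 array left out. With a replicate block 360 genes were called (193 higher, 167 lower) and 2 neighbours of Gdf9; same-numbered arrays did not deviate together (r from -0.02 to 0.09), so the block rests on a shared number only. Quantile normalization, median centring, other dim filters, another probe set, a floor, array weights, trended variances and the oocyte covariate gave 371 to 607 calls. Of the 100 called genes named, 24 were called under all 23 alternatives. None reversed, though with groups that do not overlap, leaving out arrays cannot reverse a change. Among all calls, 2 reversed as the mean of probe sets and 3 with the most variable one. Another tested probe set was present for 217 of the called genes. Of these, 51 had one called in the same direction, 47 had one of opposite sign and 1 had one called in the opposite direction. Named genes with another probe set of opposite sign included Pfkfb3, Tap1, Mylk and Slc6a6.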

Other observations

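Calls were also made among probe sets that carry no single gene name, control probe sets left out. Of 10092 such probe sets 4231 passed the dim filter and 66 were called in limma over all probe sets, 43 higher and 23 lower. That is 1.56% of them, against 1.98% of probe sets with 1 gene. The probe set with the largest change among them was at 7.91, 7.52 and 6.62 in Bmp15-/- and 10.41, 10.53 and 10.66 in DM, with wildtype at 8.99 to 9.16, so the mutants lay on opposite sides of wildtype.

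Outside the lists, several called genes carry named roles in the ovary or in growth factor signalling. They were chosen after their values were seen, from the 25 next largest changes each way. Wt1, a transcription factor of early granulosa cells, rose 2.40-fold, from a mean of 9.94 ± 0.35 to 11.20 ± 0.45 (SD, n = 3, limma adjusted p = 0.046), a call lost under 14 of 23 alternatives. Fgfr2, a receptor for oocyte FGFs, fell 2.38-fold (adjusted p = 0.00662), with means of 9.10 in DM, 10.36 in Bmp15-/- and 11.26 on the wildtype arrays. Pla2g4a, the phospholipase that frees arachidonate, fell 2.19-fold (adjusted p = 0.00428). Sulf1, which trims heparan sulfate, rose 2.12-fold (adjusted p = 0.00728), and Entpd1, which breaks down extracellular ATP, 2.16-fold (adjusted p = 0.0329), a call lost under 9 of them.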
